A study of Homo sapiens with 2 samples.

Results

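The 10 genes described here encode 4 subunits of the transcription factor NF-kappaB (NFKB1, NFKB2, RELA and RELB), 3 regulators that NF-kappaB induces and that act back on its pathway (NFKBIA, TNFAIP3 and BIRC3), and 3 outputs (ICAM1, IL1A and IL1B). They were chosen by symbol, and 10 of 58698 genes in the deposited table carry these symbols. The table compares 2 cultures of MIA PaCa-2, an established human pancreatic cancer cell line. One, called sgGFP, carried a guide RNA against GFP, a jellyfish gene that human cells lack, and its genotype is given as WT. The other, called sgTPST2, carried a guide against TPST2 and is given as a TPST2 knockdown (KD). TPST2 is an enzyme of the Golgi that adds sulfate to tyrosines of secreted and membrane proteins. Whether the guides led to a cut or to repression, and whether each culture was 1 clone or a pool, was not stated in the sources used here. Total RNA was sequenced from 1 library per condition, so no difference below has a replicate check and none was tested. Levels were read as FPKM, a fragment count divided by transcript length in kb and by library size, although the table names no unit. The columns sum to 1010080 and 1000940, so a rescaling to a common sum is possible and the unit is an assumption. In bulk RNA, fewer cells that express a gene and less RNA per cell cannot be told apart.

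NF-kappaB is a dimer of Rel family proteins. RELA, RELB and the protein REL carry a transactivation domain, whereas NFKB1 and NFKB2 are made as precursors and processed to the DNA-binding subunits p50 and p52. In resting cells the inhibitor IkappaB alpha, the product of NFKBIA, holds dimers in the cytoplasm. Tumour necrosis factor, interleukin-1 and other signals activate the IkappaB kinase (IKK) complex, which marks the inhibitor for destruction, and dimers then enter the nucleus. Because NFKBIA, TNFAIP3 and BIRC3 are themselves targets, their RNA is commonly read as a sign of pathway activity. In pancreatic cancer cells NF-kappaB is known for driving inflammatory cytokines and survival genes.

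The targeted gene was lower in the library with its guide: TPST2 (chromosome 22, 26521983 to 26596717, GRCh38) stood at 8.46 FPKM in sgGFP and at 1.92 in sgTPST2. In the authors' deposited table TPST2 has q = 0.245, which is not under 0.05. As for depth, a gene at 1 FPKM rests on about 42.02 fragments per kb in the sgGFP library and on 47.8 in that of sgTPST2. This was read from the spacing of low values, and the kb are those left after 180 bp are taken off the transcript length. Over the 13420 genes whose higher value was at least 1 FPKM, 88.7% lay within 1.5-fold on the log2(FPKM + 1) scale and the median difference was 0.00. The epithelial keratin genes KRT8 and KRT19 differed far more than that. KRT8 stood at 510 FPKM in sgGFP and 41.6 in sgTPST2, and KRT19 at 189 and 12.8. Not all epithelial markers were expressed: KRT7 stood at 0.615 and 0.112 FPKM, and EPCAM is listed at 0 in both libraries (both named after their values were seen).

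Among the 10 genes the interleukin-1 genes had the largest differences on the log2(FPKM + 1) scale. On that scale 8 of the 10 lay within 1.5-fold, 2 (IL1A and IL1B) were lower in sgTPST2 by that factor or more, and 0 were higher by it. The count depends on the scale for ICAM1, which is under 1 FPKM in both libraries: its plain ratio was 2.67, and its difference with a pseudocount of 0.1 was 1.13 (log2). Of the other 7, NFKB2 at a ratio of 1.45 and TNFAIP3 at 0.731 lay farthest from 1. Among all genes past 1 FPKM, 6.94% were at least 1.5-fold lower and 4.41% higher. The differences of the 10 genes went both ways, 5 above 0 and 5 below, with a median of -0.02 over all of them. The 2 lower genes passed the 1 FPKM filter only through sgGFP, so a count over genes past the filter would favour a difference. They also lie where differences are more common, since 10.4% of the 3916 genes with a higher value of 1 to 5 FPKM were at least 1.5-fold lower. By the authors' own comparison, 0 of the 10 genes have q under 0.05 in the authors' deposited table, against 0.517% of the 18574 genes tested there.

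**Figure D1:**
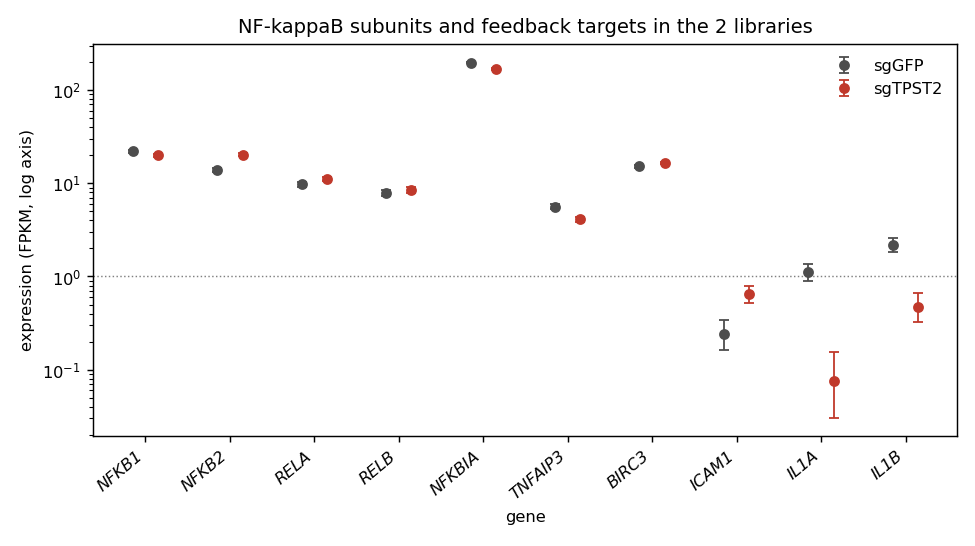
Expression of the 10 genes in FPKM (vertical log axis) in sgGFP (grey) and sgTPST2 (red), 1 library each; bars are Poisson 95% intervals that cover counting error only, and the dotted line marks 1 FPKM. NFKBIA is the highest gene in both libraries at 197 and 169 FPKM, and IL1A, at 1.11 and 0.0752, has the widest gap.

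The order of levels can be read because FPKM is scaled to length. In sgGFP it ran from NFKBIA through NFKB1, BIRC3, NFKB2, RELA, RELB and TNFAIP3 to IL1B, IL1A and ICAM1. In sgTPST2, NFKB2 and NFKB1 were neighbours at 20.2 and 19.9 FPKM, whose counting intervals (19.4 to 20.9 and 19.3 to 20.6) overlap. At the lower end ICAM1 stood above IL1B in sgTPST2, at 0.646 and 0.471 FPKM, and those intervals (0.523 to 0.790 and 0.327 to 0.668) overlap too. Intervals rest on the length of the longest principal transcript, and they would shift for a gene whose cells use a shorter one.

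Among the subunits, NFKB1 (ENSG00000109320.11, chromosome 4, 102501329 to 102617302) encodes p105 and its product p50, the usual partner of RELA. It stood at 21.9 FPKM in sgGFP and 19.9 in sgTPST2, a difference of -0.13 on the log2(FPKM + 1) scale. RELA (chromosome 11, 65653596 to 65663094), the main activating subunit, stood at 9.81 FPKM in sgGFP and 11.2 in sgTPST2, a difference of 0.17. Both genes of the canonical dimer were thus close between the libraries, one slightly lower and one slightly higher. The exons of RELA overlap those of AP001362.2, a long non-coding RNA on the opposite strand that stood at 1.79 and 2.38 FPKM. No source used here gives the strand setting of the authors' counting, so some reads of the pair cannot be told apart.

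The subunits of the non-canonical branch differed from each other. NFKB2 (ENSG00000077150.18, chromosome 10, 102394110 to 102402529), which encodes p100 and its product p52, stood at 13.9 FPKM in sgGFP and 20.2 in sgTPST2. That is a difference of 0.50 (log2), or a ratio of 1.45 with a counting interval of 1.36 to 1.54, just under the 1.5-fold mark. RELB (chromosome 19, 45001430 to 45038198), the partner of p52, stood at 7.92 FPKM in sgGFP and 8.52 in sgTPST2, a difference of 0.09. Its counting intervals, 7.34 to 8.52 and 7.95 to 9.10 FPKM, overlap. REL, the remaining family member, went the other way from NFKB2 and stood at 2.52 FPKM in sgGFP and 1.48 in sgTPST2 (-0.51; named after its values were seen). Of the FPKM summed over the 5 Rel family genes, NFKB1 held 39.1% in sgGFP and 32.5% in sgTPST2, while NFKB2 held 24.8% and 32.9%. RELA held 17.5% and 18.3%, and RELB 14.1% and 13.9%. The shares of RELA and RELB were thus nearly level, and REL held 4.49% and 2.41%. A share also falls when another gene of the sum is higher. NFKB1 itself stood at 21.9 and 19.9 FPKM, beside NFKB2 at 13.9 and 20.2.

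The feedback genes include the highest level of the group. NFKBIA (ENSG00000100906.10, chromosome 14, 35401511 to 35404749) stood at 197 FPKM in sgGFP and 169 in sgTPST2, a difference of -0.22 (log2). The ratio was 0.855 with a counting interval of 0.833 to 0.878, and no spread between cultures is known. Its RNA was 20.1 times that of RELA in sgGFP and 15.05 times in sgTPST2. TNFAIP3 (chromosome 6, 137867188 to 137883312) encodes A20, a ubiquitin-editing enzyme that shuts off signalling to IKK, and stood at 5.60 and 4.09 FPKM (-0.37). BIRC3 (chromosome 11, 102317450 to 102339403) encodes cIAP2, a ubiquitin ligase at tumour necrosis factor receptors that also limits the non-canonical branch, and stood at 15.2 and 16.6 FPKM (0.11). The 3 feedback genes thus lay between -0.37 and 0.11, 2 of them lower in sgTPST2 and 1 higher, and 0 of the 3 reached 1.5-fold.

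Promoter sequence sets some of these genes apart from others. RefSeq promoter windows (GRCh38.p14) matched 9 of the 10 symbols, and the 250 bases before each start were searched on both strands for the kappaB consensus, which reads GGG, a purine, any base, A or T, a pair of pyrimidines and CC. It was found for 5 of the 9 genes, NFKB1, NFKB2, NFKBIA, TNFAIP3 and BIRC3, and not for RELA, ICAM1, IL1A or IL1B. Over all genes, 6.28% of 27303 symbols hold it in at least 1 window, and 5.21% of all 35114 windows do. Sequences are shown for the genes with a match, to show the sites, and for IL1A and IL1B, the pair with the largest differences. Each reads 5′ to 3′ on the strand of the gene, with matches in capitals, and those of NFKBIA, BIRC3, NFKB1, IL1A and IL1B stop before the first exon that GENCODE annotates. The regions are chr14:35404750-35404999 (minus strand) for NFKBIA, chr11:102317234-102317449 (plus) for BIRC3, chr4:102501109-102501328 (plus) for NFKB1, chr2:112784591-112784743 (minus) for IL1A and chr2:112836904-112837029 (minus) for IL1B. For TNFAIP3 and NFKB2, whose matches lie mostly past a first annotated start, only stretches of at most 30 bases are shown, at chr6:137867188-137867217, chr10:102394467-102394496 and chr10:102395680-102395704, all on the plus strand.
NFKBIA: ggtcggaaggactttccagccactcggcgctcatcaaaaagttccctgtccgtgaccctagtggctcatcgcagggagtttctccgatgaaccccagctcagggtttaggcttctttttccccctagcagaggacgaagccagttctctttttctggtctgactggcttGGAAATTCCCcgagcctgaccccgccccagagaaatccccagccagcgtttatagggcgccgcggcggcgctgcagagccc
BIRC3: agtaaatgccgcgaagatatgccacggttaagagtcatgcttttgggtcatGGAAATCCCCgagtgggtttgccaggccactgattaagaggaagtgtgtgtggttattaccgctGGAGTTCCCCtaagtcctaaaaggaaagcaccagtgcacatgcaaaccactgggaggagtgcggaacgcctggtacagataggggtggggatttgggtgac
NFKB1: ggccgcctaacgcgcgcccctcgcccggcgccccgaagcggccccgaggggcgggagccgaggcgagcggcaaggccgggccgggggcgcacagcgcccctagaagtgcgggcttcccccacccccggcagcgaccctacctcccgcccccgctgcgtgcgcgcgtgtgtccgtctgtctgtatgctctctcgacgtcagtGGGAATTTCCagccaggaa
TNFAIP3: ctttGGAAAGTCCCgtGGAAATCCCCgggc
NFKB2, start at 102394578: tcatGGGAATTCCCCcctccggggggccga
NFKB2, start at 102395705: tttcGGGACTTTCCtaagctgctct
IL1A: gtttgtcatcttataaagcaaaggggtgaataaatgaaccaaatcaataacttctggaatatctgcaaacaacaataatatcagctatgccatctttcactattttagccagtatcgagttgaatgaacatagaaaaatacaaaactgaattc
IL1B: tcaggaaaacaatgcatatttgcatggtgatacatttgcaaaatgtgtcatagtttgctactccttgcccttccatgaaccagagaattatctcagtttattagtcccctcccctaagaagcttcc

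The match in NFKBIA lies 81 to 72 bases before the start and reads GGGAATTTCC on the other strand, the same word that NFKB1 holds 49 to 40 bases before its start. TNFAIP3 holds GGGACTTTCC and GGGGATTTCC within 67 to 46 bases of its start, and BIRC3 holds GGGGATTTCC and GGGGAACTCC farther out, from 199 and 135 bases. NFKB2 has 3 matches, 2 of them overlapping, before its start at 102394578 and 2 before that at 102395705. Not shown above are GGGGCTTTCC, 78 to 69 bases before the former start, and GGGGCTTCCC, 176 to 167 bases before the latter. The 5 genes with a match lay between -0.37 and 0.50 (log2), and 0 of them were 1.5-fold apart. A match is not a bound site, and the lack of one says only that these letters are not in this window. The shorter word GGAAATTCC, held by 0.413% of windows and overlapping the consensus in NFKBIA and NFKB1, was also found in ICAM1, 186 to 178 bases before the start. It is shown with its flanks at chr19:10270930-10270959 (plus strand).
ICAM1: gcttGGAAATTCCggagctgaagcggccag

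Among genes past 1 FPKM whose symbol matched a promoter window, those with and without the motif were alike in their medians. The rest of the 13420 genes past the filter had no matched window and were left out. Of 725 genes past 1 FPKM with the consensus in at least 1 window, 6.76% were at least 1.5-fold lower and 3.86% higher, with a median difference of 0.00. Of 8430 genes without it, 5.61% were lower and 2.92% higher, also with a median of 0.00. These are descriptions of 2 libraries.

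The interleukin-1 genes had the largest differences of the group. Both encode pro-inflammatory cytokines that signal through the receptor IL1R1, IL1A as an alarmin active in its precursor form and IL1B as a precursor that needs cleavage by caspase-1. IL1A (ENSG00000115008.5, chromosome 2, 112773915 to 112784590) stood at 1.11 FPKM in sgGFP and 0.0752 in sgTPST2, about 90.8 and 7.0 fragments on its single annotated transcript. The difference was -0.97 on the log2(FPKM + 1) scale, which understates changes near 1 FPKM. As a plain ratio the value was 14.8-fold lower, with a counting interval of 6.90 to 37.9-fold. In the authors' deposited table IL1A has p = 0.0196 and q = 0.948.

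IL1B (ENSG00000125538.11, chromosome 2, 112829751 to 112836903) stood at 2.16 FPKM in sgGFP and 0.471 in sgTPST2, about 131.9 and 32.7 fragments. The difference was -1.11 (log2), or 4.60-fold lower as a plain ratio with a counting interval of 3.09 to 6.89. It was the 1 gene of the 10 that was at least 2-fold lower on the log2(FPKM + 1) scale, where 2.93% of all genes past the filter were. That share covers all levels, and IL1B passed the filter only through sgGFP. The share is thus no measure of how unusual IL1B is. In the authors' deposited table IL1B has p = 0.0237 and q = 0.9997. Both cytokine genes were thus low in sgGFP and lower in sgTPST2, and their counting intervals do not overlap between the libraries. IL1B stood 1.95 times above IL1A in sgGFP and 6.26 times above it in sgTPST2.

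Leukocytes, above all macrophages, are a known source of IL1B, so markers of leukocytes were read in these cultures of a cell line. Of 7 leukocyte markers, 5 were under 1 FPKM in both libraries. The pan-leukocyte gene PTPRC stood at 0.102 FPKM in sgGFP and LYZ at 0.0705, and both are listed at 0 in sgTPST2. CSF1R went the other way, at 0.115 and 0.148 FPKM. The T cell gene CD3E and the B cell gene MS4A1 are listed at 0 in both libraries. All 5 are named after their values were seen. CD68 stood at 3.32 and 1.51 FPKM and CD14 at 2.67 and 1.76, and the whole list summed to 6.28 and 3.42 FPKM. The part of these genes in the IL1B difference was not tested.

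ICAM1 (ENSG00000090339.8, chromosome 19, 10270835 to 10286615), a cell-surface ligand of leukocyte integrins and a classic NF-kappaB target, went the opposite way from the interleukin-1 genes. It stood at 0.242 FPKM in sgGFP and 0.646 in sgTPST2, about 31.2 and 95 fragments. The difference was 0.41 (log2), or a ratio of 2.67 with a counting interval of 1.78 to 4.18. Both values are under the 1 FPKM filter, so ICAM1 is not among the 9 genes past it. Its exons overlap 2 antisense genes, AC011511.2 at 0.161 and 0.0799 FPKM and AC011511.5 at 0.367 and 0.512, and without a known strand setting their reads cannot be told apart from those of ICAM1.

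**Figure D2:**
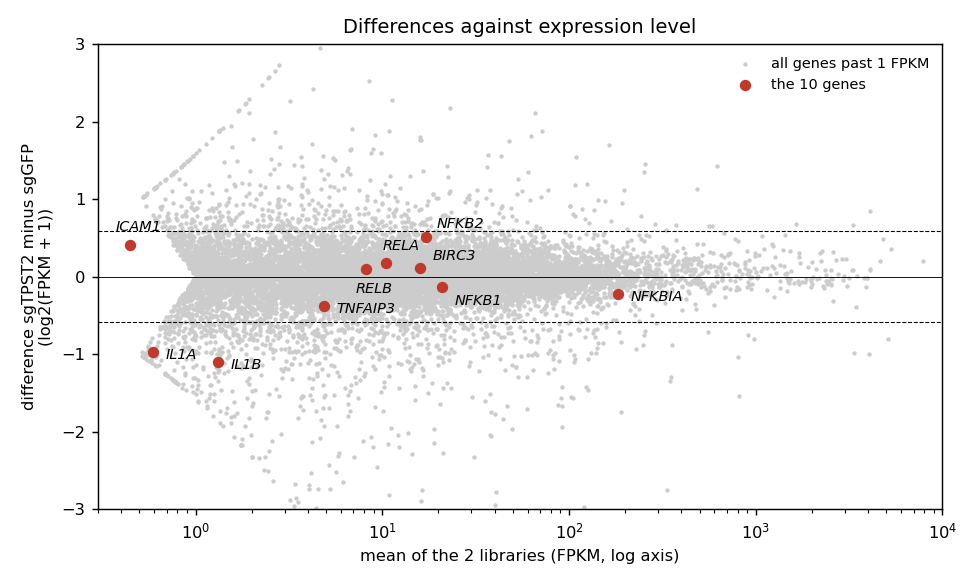
Difference between the libraries (vertical axis, log2(FPKM + 1), sgTPST2 minus sgGFP) against the mean of both (horizontal log axis, FPKM), with genes past 1 FPKM in grey, the 10 genes in red, and dashed lines at 1.5-fold; 89 genes lie outside the drawn range. IL1A (-0.97) and IL1B (-1.11) are the 2 red points below the lower line, at a mean near 1 FPKM, and the other 8, ICAM1 included on this scale, lie between the lines.

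The rest of the pathway was described with lists of other genes, ordered from receptor to target. Among 11 receptors that feed NF-kappaB, 7 passed 1 FPKM. Of these, 3 were lower by 1.5-fold or more and 0 higher (median -0.23). Over all genes past 1 FPKM the shares were 6.94% lower and 4.41% higher. TNFRSF1A, the main receptor of tumour necrosis factor, stood at 112 and 63.9 FPKM, and LTBR, the lymphotoxin beta receptor of the non-canonical branch, at 85.0 and 41.6. These 2 lie near each other on the short arm of chromosome 12 (from 6328757 and 6375045). The genes around them were not described here, and whether the 2 differences are separate changes was not tested. CD40, named after its values were seen, was the third, at 4.51 and 1.80 FPKM. The interleukin-1 receptor gene IL1R1, likewise, stood at 29.2 and 30.3 FPKM, so the receptor of the lower cytokines was level.

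Signal relay genes had list medians close to 0, with single genes higher. Of 11 IKK subunits and upstream kinases, 1 stood 1.5-fold or more above sgGFP and 0 below (median 0.11). That gene was IKBKE, an IKK-related kinase, at 4.60 FPKM in sgGFP and 8.74 in sgTPST2. MAP3K14, which encodes NIK, the kinase that triggers processing of the NFKB2 product, stood at 9.81 and 13.5 FPKM, and IKBKG, the scaffold of the IKK complex, at 4.91 and 6.63. Of 15 ubiquitin ligases and adaptors, 0 were 1.5-fold apart in either direction (median 0.04), with TRADD, an adaptor of TNFRSF1A, at 3.96 and 5.60 FPKM and the kinase gene IRAK1 of the interleukin-1 receptor at 158 and 130.

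The other Rel and IkappaB family genes and the other negative regulators were mostly level or higher in sgTPST2. Of 6 other Rel and IkappaB family genes, not all of them inhibitors, 0 were 1.5-fold apart on the log2(FPKM + 1) scale (median 0.15). NFKBIZ stood at 9.77 and 11.8 FPKM and NFKBIE at 7.75 and 8.55. The subunit gene REL was lower, at -0.51 and a plain ratio of 0.587. Of 9 other negative regulators past the filter, 1 reached 1.5-fold upward and 0 downward (median 0.11). TNIP1, which encodes a ubiquitin-binding partner of A20, was that gene, at 26.3 FPKM in sgGFP and 51.2 in sgTPST2 (0.94). In the authors' deposited table it has q = 0.470. OTULIN, a deubiquitinase of linear chains, stood at 9.01 and 12.3 FPKM. TNIP1 and TNFAIP3, whose products act together, therefore lay on opposite sides of 0.

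Other target genes split. Of 20 target genes 12 passed 1 FPKM, of which 6 were at least 1.5-fold lower and 1 higher. Over all genes past 1 FPKM the shares were 6.94% lower and 4.41% higher. The list had a median of -0.54 where the median of all genes was 0.00. The neutrophil chemokine genes CXCL8 and CXCL1 stood at 146 and 140.3 FPKM in sgGFP and at 37.4 and 43.6 in sgTPST2, and in the authors' deposited table both have q = 0.0126. These q-values rest on 1 library per condition and hold no measured spread between cultures. CXCL2 stood at 10.7 and 5.19 FPKM, and the cytokine gene LIF at 20.8 and 9.44. The remaining lower genes, named after their values were seen, were CXCL3 at 5.12 and 2.29 and the caspase-8 regulator CFLAR at 80.6 and 44.9. The higher one, also named after its values were seen, was GADD45B at 15.1 and 23.2. Within 1.5-fold were the remaining 5 genes, all named after their values were seen: SOD2 at 82.1 and 68.6 FPKM, TNFAIP2 at 90.8 and 76.6, PLAU at 106.7 and 89.99, BCL2L1 at 16.2 and 17.9 and IER3 at 1.28 and 1.47. Among the lower genes only CFLAR encodes an intracellular protein, and among the level genes only PLAU encodes a secreted one. This split was drawn after the values were seen and was not tested. It leaves out the targets under the filter, some of which are secreted. The CXCL genes lie near each other on chromosome 4 (73740506 to 74099293). Whether their differences are separate changes was not tested. CFLAR lies on chromosome 2 (201116104 to 201176687). The genes around CFLAR were not described here, and whether its difference is separate from theirs was not tested. The inflammatory genes CCL2, CCL20, PTGS2, SELE and BCL2A1, likewise named after their values were seen, are listed at 0 in both libraries.

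**Figure D3:**
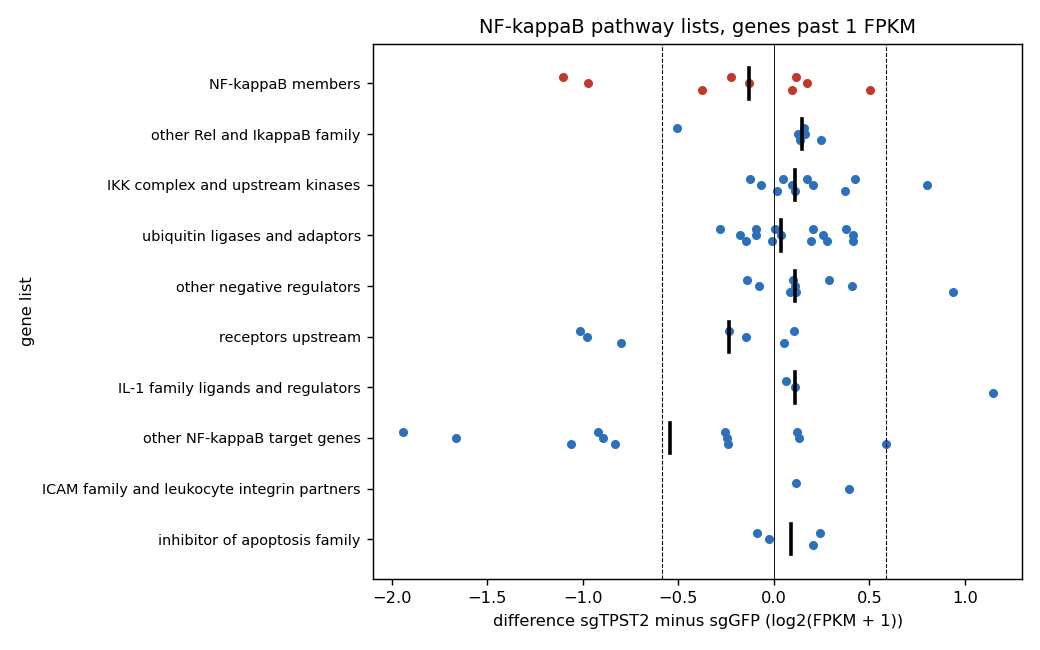
Differences of the genes past 1 FPKM (horizontal axis, log2(FPKM + 1), sgTPST2 minus sgGFP) for the 10 genes (red) and 9 other lists of the pathway (blue), 1 point per gene, black bars at medians of lists with 3 or more genes and dashed lines at 1.5-fold. The other target genes reach furthest to the left (median -0.54). The kinase, adaptor, Rel and IkappaB, and negative regulator lists have medians close to 0 (0.04 to 0.15).

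The chromosomal surroundings of each gene were described by the 5 nearest expressed protein-coding genes on either side. NFKB2 lies among genes that were higher as well: all 10 of its neighbours, between 102065390 and 102743492 of chromosome 10, were above 0, with a median of 0.36 beside its own 0.50. TRIM8 there stood at 16.2 and 24.4 FPKM and LDB1 at 15.1 and 26.5 (both named after their values were seen). RELA likewise stood at 0.17 beside a neighbour median of 0.16. The neighbours of NFKBIA had a median of 0.00 and ranged from -0.14 to 0.16, and NFKBIA at -0.22 lay below all of them.

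IL1A and IL1B lie near each other in the interleukin-1 cluster of chromosome 2, 45161 bp apart on the same strand, and share the same 10 neighbours. These had a median of 0.03 and ranged from -0.74 to 0.27, so both cytokine genes lay below all of them. Of the neighbours, 2 were at least 1.5-fold lower, POLR1B at 37.4 and 23.4 FPKM and SLC20A1 at 127.6 and 75.9 (named after their values were seen). Whether the differences of IL1A and IL1B are separate changes was not tested. NFKB1 stood at -0.13 beside a neighbour median of -0.09, although DDIT4L, one of its neighbours, was at 34.0 and 0.244 FPKM (named after its values were seen). The neighbours of BIRC3 scattered widely, from MMP1 at -1.49 to PDGFD at 1.32 (both named after their values were seen), and its paralogue BIRC2, the next gene, stood at 47.1 and 54.5 FPKM, 3.09 times above BIRC3 in sgGFP and 3.29 times in sgTPST2.

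**Figure D4:**
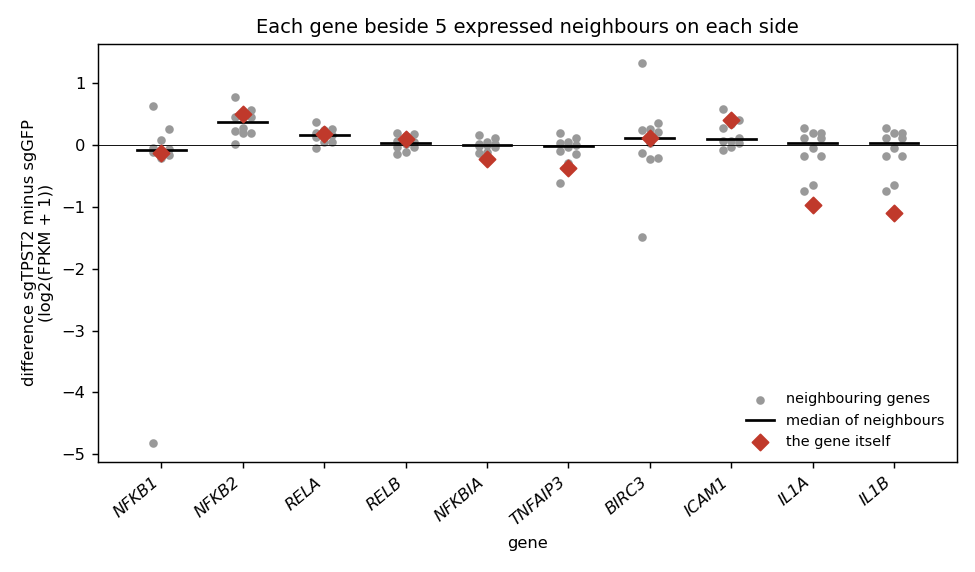
Difference of each of the 10 genes (red diamonds, log2(FPKM + 1), sgTPST2 minus sgGFP) beside those of 5 expressed protein-coding neighbours on each side (grey) and their median (black bar). IL1A and IL1B lie below all of their neighbours, and NFKB2 at 0.50 lies among neighbours with a median of 0.36.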

How the data were processed

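RNA of 2 MIA PaCa-2 cultures was sequenced as stranded total RNA libraries, per the labels' protocols. STAR and Cuffdiff with the build hg38 are named in the submitters' processing notes; no source used here gives versions, annotation release or strand setting. The 2 value columns were deposited by the authors without a named unit and were read as FPKM, the unit in which Cuffdiff reports; their sums do not exclude a scaling to a common sum. The p-value and q-value are those of the authors' deposited table. The deposited log2 fold change equals log2((sgTPST2 + 1)/(sgGFP + 1)) to within 2.1e-15, and the same scale, with a pseudocount of 1, was used here. Test statistics, a score deposited by the authors, were not used.

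All 58698 identifiers matched GENCODE release 29, which gave coordinates and transcript lengths. A symbol listed more than once was represented by its entry with the higher mean. With 1 library per group no test was made: genes at least 1.5-fold apart were counted among those with a higher value of at least 1 FPKM. Depth came from low values of genes with 1 transcript over 1500 bp. With a fitted step of 0.0238 (sgGFP) and 0.0209 (sgTPST2) FPKM per fragment and kb and an offset of 180 bp, 91.5% of 837 and 93.04% of 776 values lay within 0.1 of a whole number, where even spread gives 20%. The step was fitted on these same values. Poisson and ratio intervals (95%, exact) cover counting error only. The calculations were tested on simulated data with planted folds, step and motifs (Python 3.11.15, scipy 1.17.1).

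The 10 genes, the 9 pathway lists and the marker lists were chosen with earlier results of these data known. Named by rule are the 10 genes, TPST2 and markers at 1 FPKM or more. From each list up to 4 genes with the largest difference at 5 FPKM or more are named too. AP001362.2, AC011511.2 and AC011511.5 are named for their exon overlap, and other genes named beyond this rule are said to be. Not every marker that the rule names is printed: epithelial markers past the filter were all lower (4 of 4, median -3.17), as were 3 of 3 fibroblast markers (median -0.76) and the 1 endothelial marker, CDH5 (2.93 and 0.277 FPKM), and 4 of 4 acinar and islet markers are listed at 0. Alternatives were other pseudocounts, scalings, filters and neighbour settings.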

Additional observations from a re-analysis of the deposited data

How the results depend on the processing

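No paired analysis was possible because there was 1 library per group, and no replicate could be left out. Scaling to the same upper quartile, to the same sum or centring on the median gene moved the median of all genes past the filter by at most 0.0117 (log2). They moved none of the 39 counts, gene differences and list medians they were run on past its bound (a count by 1.5 times, a gene's difference beyond its counting interval, a median by 0.1). At a higher value of at least 5 FPKM, IL1A and IL1B drop out, 0 of the 10 genes are 1.5-fold lower and their median is 0.0937. Without a filter it is -0.0191, against -0.13 over the 9 genes past 1 FPKM. For other target genes the median was -0.83 at 5 FPKM or more and -0.0456 without a filter, which adds genes near 0. At 5 FPKM or more 0 interleukin-1 family genes are higher, as CASP1 drops out. Without a filter 1 inhibitor of apoptosis, BIRC7, is lower. With a pseudocount of 0.1 or 0.5, 1 other Rel family gene, REL, is lower, and with 0.1, 1 adaptor gene is higher. A pseudocount of 0.1 gives differences of -2.79 for IL1A, -1.99 for IL1B and 1.13 for ICAM1. Neighbour medians moved by over 0.1 for BIRC3 (-0.06 and -0.07), NFKB1 (0.05), NFKB2 (0.24) and TNFAIP3 (-0.19) with 10 genes a side or a mean of at least 1 FPKM. Depth limits IL1A, IL1B and ICAM1, which rest on few fragments.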

Other observations

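Relatives of the 10 genes are given here as values, of which CASP1, IL1RN, IL33, ITGB2 and BIRC7 were named after their values were seen. CASP1, the protease that matures the IL1B product, stood at 1.63 FPKM in sgGFP and 4.82 in sgTPST2, a ratio of 2.96 with a counting interval of 2.41 to 3.63, while its substrate gene IL1B was lower. In the authors' deposited table CASP1 has q = 0.9997. Of 10 other interleukin-1 family ligands and regulators 7 were under 1 FPKM in both libraries, and the antagonist IL1RN and the cytokine IL33 are listed at 0 in both.

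Of 7 genes of the ICAM family and its leukocyte integrin partners, 2 passed 1 FPKM. ICAM5 stood at 15.1 and 20.1 FPKM and ICAM3 at 7.29 and 7.97, both far above ICAM1. The integrin gene ITGB2 stood at 0.274 and 0.201 FPKM. Of 6 other inhibitor of apoptosis genes 4 passed, and none of these was 1.5-fold apart (median 0.09), with BIRC5 at 111.9 and 132.7 FPKM and XIAP at 19.98 and 19.6. BIRC7 stood at 0.510 FPKM in sgGFP and is listed at 0 in sgTPST2, and in the authors' deposited table it has q = 0.0417. That q-value, too, rests on 1 library per condition.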
